A study of Rattus norvegicus with 3 samples.

Results

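Small leucine-rich proteoglycans are secreted proteins of the extracellular matrix, built around a run of leucine-rich repeats and, in many members, carrying chondroitin, dermatan or keratan sulfate chains. They bind collagen fibrils and shape their assembly, and several of them also bind growth factors of the TGF-β family or cell surface receptors. In the kidney they belong mainly to the interstitium and the walls of vessels. The 8 rat genes listed here were Dcn, Bgn, Aspn, Fmod, Lum, Prelp, Omd and Ogn. The family was chosen by the measured rise of Dcn in these same arrays, so the values of its members, and the side of the threshold on which they lie, are given as a description and support nothing further. All 8 genes had a probe on the array, and 7 of them were among the 14183 genes bright enough to be tested.

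Kidney RNA of male Sprague-Dawley rats, 5 weeks old by the labels, was compared between an untreated control and rats given γ-aminobutyric acid (GABA) at 200 ppm in their drinking water, named G200. GABA is an amino acid best known as an inhibitory neurotransmitter. Each of 3 Agilent arrays carried control RNA in Cy3 (green) and G200 RNA in Cy5 (red), and a positive log2 ratio is a higher level in the G200 channel. The dyes were exchanged on no array, and a difference between the dyes cannot be told apart from the effect of GABA. The 3 arrays shared 1 slide and 1 scan. The green channels varied little between arrays. Over 1068 probes with 10 spots each, the median SD between arrays was 0.0367 log2 units in green and 0.184 in red. It was taken on the mean of the spots of each probe. Between single spots of an array the median SD was 0.113 in green and 0.148 in red, which is not on the scale of means. The control was therefore counted as 1 sample, and the spread between control rats does not enter any value.

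Of 42877 spots on each array, 25657, 26864 and 26723 were well above background in green on replicates 1, 2 and 3, and 27008, 24260 and 26151 in red. Kidney markers were present: 8 of 9 genes of the proximal tubule, 6 of 6 of the podocyte and 8 of 10 of the loop, distal tubule and collecting duct were bright enough to be tested. All 16 genes of a liver list were as well, and their values are given with the cell types.

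Among the 7 tested members, Dcn and Ogn lay past the threshold (adjusted p under 0.05 in the fit over all genes) on the higher side, where 11.5% of all genes lay. Bgn lay past it on the lower side, as did 25.9% of all genes, and its direction turned when the arrays were median centred or left without normalization between the dyes. Aspn, Fmod, Prelp and Omd passed on neither side. The median of the 7 mean log2 ratios was 0.10, beside -0.05 over all genes tested, and the members ran from -0.38 to 1.09.

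Dcn encodes decorin, which carries a chondroitin or dermatan sulfate chain, coats collagen fibrils and binds TGF-β. Its log2 ratios were 1.12, 0.70 and 1.44 on replicates 1, 2 and 3, a mean of 1.09 ± 0.37 (SD, n = 3) or 2.13-fold with loess. The mean was 1.70 with median centring and 2.05 without normalization between the dyes. With loess this was rank 3 from the top among the 14183 genes. In the control the normalised log2 intensity of Dcn was 8.23, 8.26 and 8.27, and in G200 it was 9.35, 8.97 and 9.71. The SD was 0.37 in G200 and 0.02 in the control, whose 3 values are counted here as repeats of 1 sample.

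**Figure D1:**
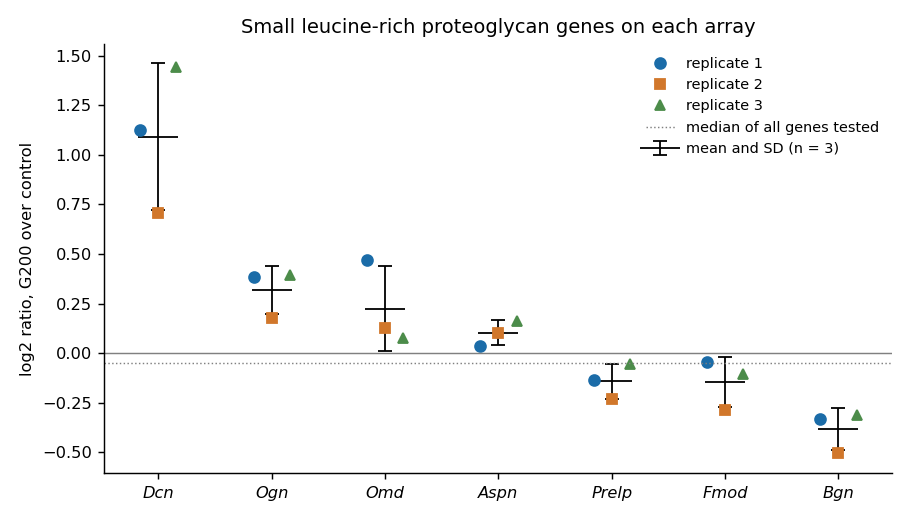
Log2 ratio of G200 over control (y axis) of the 7 tested members on each array, with the mean and SD of the 3 arrays as a bar. Dcn lies between 0.70 and 1.44, above every value of the other members, and Bgn lies between -0.50 and -0.31 with loess normalization, a direction that turns with median centring.

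Dcn was read by a single probe printed as 10 spots on each array, well above background in both colours on all 3 arrays. One outlier mark on replicate 2 left 9 spots there. The spots ran from 1.04 to 1.26 on replicate 1, from 0.62 to 0.75 on replicate 2 and from 1.34 to 1.57 on replicate 3. The 3 ranges did not overlap, and the SD between spots of an array (0.0689, 0.0477 and 0.0757) was well under the SD between arrays. The median net intensity of these spots, before any normalization, was 186, 194 and 180 in green and 1252, 487.5 and 1136 in red. Replicate 2 had the lowest red signal, while the green signal was much alike on the 3 arrays. The same held over all spots other than controls, where the median net intensity was 54.5, 29.5 and 39 in red and 35, 37 and 35.5 in green.

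**Figure D2:**
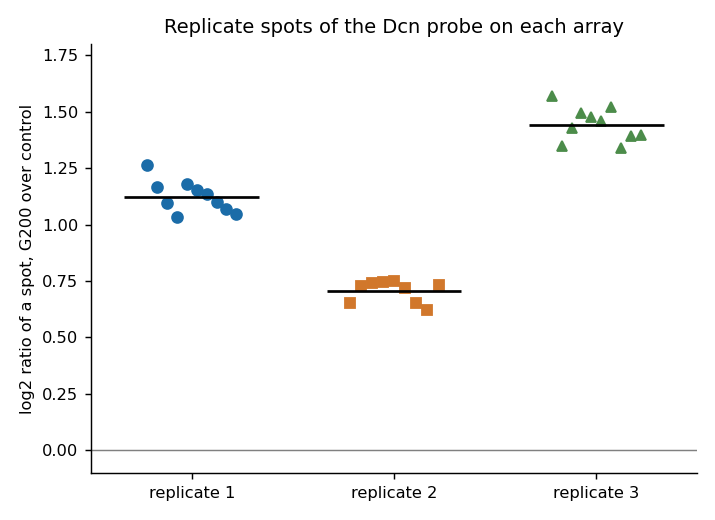
Log2 ratio of G200 over control (y axis) of each spot of the Dcn probe on the 3 arrays, with the mean of each array as a line. The spots of replicate 2 end at 0.75, under the lowest spot of replicate 1 (1.04), and those of replicate 3 begin at 1.34.

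Bgn encodes biglycan, the nearest relative of decorin, which carries chondroitin or dermatan sulfate chains and is known as a ligand of toll-like receptors. Its bright probe gave log2 ratios of -0.33, -0.50 and -0.31, a mean of -0.38 ± 0.11 (SD, n = 3). A second and much dimmer probe gave -0.50, -0.05 and -0.44, a mean of -0.33 ± 0.24. Both probes were well above background in both colours on all 3 arrays and lay below 0 on each of them. When arrays were median centred and not fitted by loess, the mean of Bgn became 0.43, which is 0.16 above the median of all genes under that setting, so the sign of Bgn depends on how the dyes are normalized.

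Aspn encodes asporin, which binds collagen and TGF-β and has no chain attached in its usual form. Its ratios of 0.04, 0.10 and 0.17 gave a mean of 0.10 ± 0.06, from a dim spot with a net green intensity of 29 to 30. Relative to the median of all genes, Aspn lay 0.15 above it with loess and at -0.17 with median centring. With the log ratio of Feature Extraction its mean was 0.53, past the threshold on the higher side and 0.55 above that median.

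Fmod, Lum, Prelp and Omd form the branch of the family that can carry keratan sulfate or a tyrosine-sulfated end. Fmod encodes fibromodulin, a regulator of collagen fibril growth, and its log2 ratios were -0.04, -0.28 and -0.11. Prelp encodes a protein that ties collagen to heparan sulfate of basement membranes, and its ratios were -0.14, -0.23 and -0.06. Omd encodes osteomodulin, best known from bone, and its ratios were 0.47, 0.13 and 0.08. The value of replicate 1 stood apart in Omd, whose mean was 0.22 ± 0.21 over the 3 arrays and 0.10 without that replicate. The means were -0.14 ± 0.13 for Fmod and -0.14 ± 0.09 for Prelp. Both were above 0 with median centring (0.07 and 0.25) and below the median of all genes with loess and with median centring. Fmod was at -0.07 without replicate 2 and at -0.26 with a normexp offset of 0, and Prelp was at -0.29 with Feature Extraction.

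Lum encodes lumican, a keratan sulfate proteoglycan known from the cornea. Its single probe was not well above background on any array in either colour. The net intensity was 17, 15 and 15 in green and 8.5, 7 and 5.5 in red on replicates 1, 2 and 3. No ratio is given for Lum, since both channels lie in the background.

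Ogn encodes osteoglycin, also called mimecan. Its log2 ratios were 0.38, 0.18 and 0.40, a mean of 0.32 ± 0.12 (SD, n = 3) or 1.25-fold. The ratio was above 0 on all 3 arrays, and replicate 2 was the lowest, as it was for Dcn. Ogn was no longer past the threshold without replicate 1 (0.29) or without replicate 3 (0.28), and Bgn was not past it without replicate 3 (-0.42). With a normexp offset of 0 neither Ogn (0.35) nor Bgn (-0.34) was past it. With 1 array left out the mean of Dcn ran from 0.91 to 1.28. The mean of Ogn was 0.95 with median centring and 1.30 without normalization between the dyes.

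**Figure D3:**
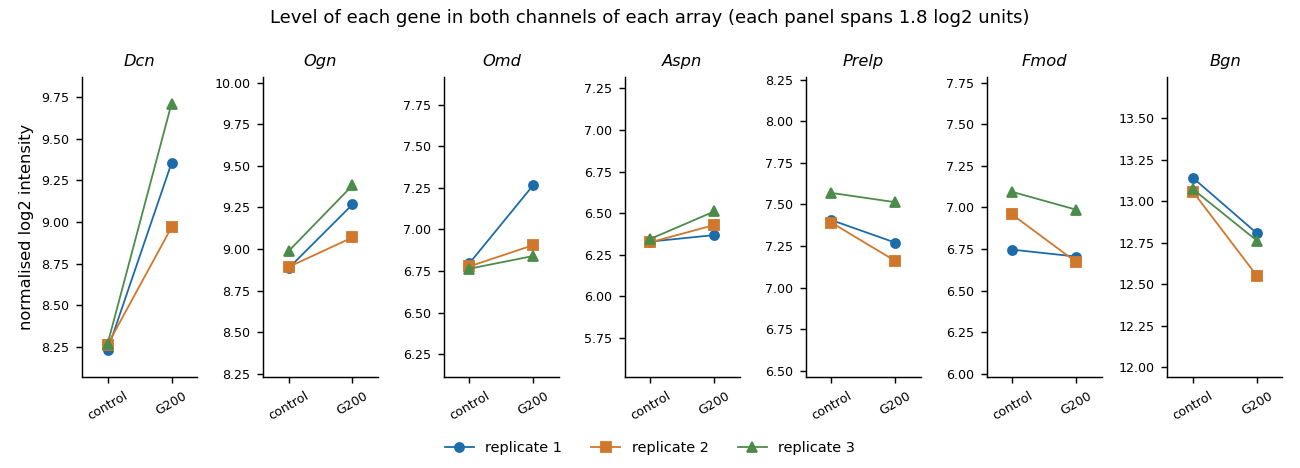
Normalised log2 intensity (y axis, a scale of its own in each panel, all of the same height) of the 7 tested members in the control and G200 channels of each array, joined by array. The control values of Dcn lie within 8.23 to 8.27 and its G200 values within 8.97 to 9.71, and the lines of Bgn fall on all arrays with loess normalization, which median centring turns.

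With loess normalization, the ratio of Dcn exceeded that of each tested relative on every array. The difference in log2 ratio from Ogn was 0.74, 0.53 and 1.05 on replicates 1, 2 and 3 (mean 0.77 ± 0.26), and from Bgn it was 1.46, 1.21 and 1.75 (mean 1.47 ± 0.27). Against Omd, Aspn, Prelp and Fmod the mean differences were 0.87, 0.99, 1.23 and 1.23. In descending order the members were Dcn, Ogn, Omd, Aspn, Prelp, Fmod and Bgn with loess, and Dcn, Ogn, Omd, Bgn, Prelp, Aspn and Fmod with median centring. Omd lay above Ogn with a normexp offset of 0 (0.41 and 0.35), with plain subtraction (0.41 and 0.35), with Feature Extraction (0.56 and 0.46) and without replicate 3 (0.30 and 0.28). Aspn lay above Ogn with Feature Extraction (0.53) and above Omd without replicate 1 (0.13 and 0.10). The array values of Ogn and Omd overlapped, as did those of Omd and Aspn and those of Prelp and Fmod. Counted from the highest mean ratio, Ogn stood at 7.85% of all genes, Omd at 14.0%, Aspn at 27.6%, Prelp at 62.7%, Fmod at 63.3% and Bgn at 84.3%.

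Median centring moved the median of all genes from -0.05 to 0.27, and the share of higher genes among those called from 30.8% to 80.0%. It was 96.3% without normalization between the dyes and 40.3% with the log ratio of Feature Extraction. Among 14183 genes, 4990 were called higher and 1246 lower with median centring, and 8010 and 304 without normalization between the dyes. With loess, 11.5% of all genes were called higher and 25.9% lower. The list counts given below, with loess and under these settings, are to be read beside those shares and numbers. Dcn was the highest of the 7 members under all 17 alternatives and lay between 0.96 and 1.43 above the median of all genes. Ogn lay 0.33 to 0.68 above that median. Omd lay 0.14 to 0.58 above it. Aspn lay between -0.17 and 0.55 from it, and Bgn between -0.37 and 0.16.

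**Figure D4:**
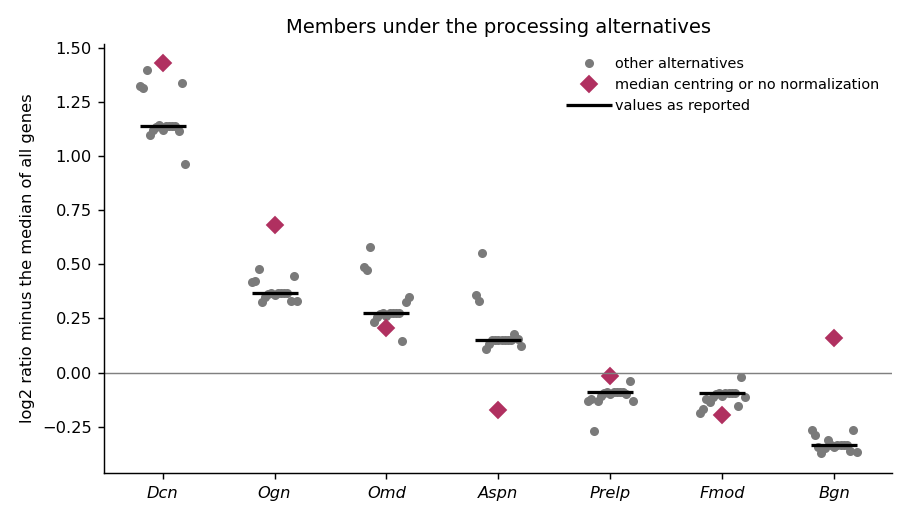
Mean log2 ratio of G200 over control minus the median of all genes (y axis) of each tested member under the 17 alternatives, with the reported value as a line. Dcn stays between 0.96 and 1.43, while Bgn (0.16) and Aspn (-0.17) change side with median centring or with no normalization, which give the same value here.

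In the rat reference, Dcn lies on chromosome 7 between Btg1 and Lum, with Kera and Epyc next in line. The mean of Btg1, which restrains proliferation, was 0.18 on the log2 scale and did not pass the threshold (limma, adjusted p = 0.101). With median centring Btg1 was at 0.94, which is 0.67 above the median of all genes, and was called higher. Lum, Kera and Epyc were not well above background on any array. Ogn, Omd and Aspn are neighbours on chromosome 17, and Prelp and Fmod on chromosome 13. With loess normalization the means of these members were 0.32, 0.22 and 0.10 on chromosome 17, and only Ogn passed the threshold. On chromosome 13 they were -0.14 and -0.14, and median centring turned both. Relative to the median of all genes with median centring, Ogn, Omd and Aspn lay at 0.68, 0.21 and -0.17. Whether neighbours change together was not tested.

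The RefSeq promoter table of GRCr8 matched 5 of the 8 members (Aspn, Fmod, Lum, Omd and Ogn). Those of the 3 neighbours on chromosome 17 are shown because these genes are the measured relatives of Dcn with mean ratios above 0. Each runs 5′ to 3′ over 300 bases of the minus strand, at chr17:15258946-15259245 for Ogn, chr17:15274821-15275120 for Omd and chr17:15310420-15310719 for Aspn. Capitals mark matches on either strand to TATAAA (the TATA box), TGANTCA (bound by AP-1), CAGACA (a SMAD-type element) or CACGTG (an E-box).
Ogn: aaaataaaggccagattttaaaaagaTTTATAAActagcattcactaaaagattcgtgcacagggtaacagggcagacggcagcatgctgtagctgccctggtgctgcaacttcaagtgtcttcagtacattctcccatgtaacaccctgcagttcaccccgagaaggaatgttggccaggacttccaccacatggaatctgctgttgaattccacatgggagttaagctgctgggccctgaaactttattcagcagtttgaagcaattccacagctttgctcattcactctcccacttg
Omd: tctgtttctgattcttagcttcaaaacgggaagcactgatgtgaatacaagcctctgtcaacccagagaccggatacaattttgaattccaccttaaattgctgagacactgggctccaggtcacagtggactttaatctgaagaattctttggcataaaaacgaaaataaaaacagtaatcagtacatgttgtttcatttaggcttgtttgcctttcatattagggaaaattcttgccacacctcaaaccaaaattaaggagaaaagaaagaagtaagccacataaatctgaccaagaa
Aspn: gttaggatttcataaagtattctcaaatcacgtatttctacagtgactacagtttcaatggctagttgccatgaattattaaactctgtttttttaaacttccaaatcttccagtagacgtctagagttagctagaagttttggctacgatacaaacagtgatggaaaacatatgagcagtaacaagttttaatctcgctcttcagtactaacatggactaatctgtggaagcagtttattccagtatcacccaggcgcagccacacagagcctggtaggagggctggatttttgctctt
The promoter of Ogn held TATAAA in both orientations, overlapping from base 27 of the window, and none of the other motifs. The promoters of Omd and Aspn, and those of Fmod and Lum, held 0 matches to any of the 4. Among 33469 promoters of the same length, 14.2% held TATAAA, 7.33% TGANTCA, 21.1% CAGACA and 6.42% CACGTG. A match is a description of these letters only.

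Of 10 further family members, 5 were matched on the array and 2 were tested. Tsku, which encodes the secreted protein tsukushi, was lower in G200, with log2 ratios of -0.75, -0.80 and -1.16 and a mean of -0.90 ± 0.22 (SD, n = 3; limma, adjusted p = 0.00186). It stayed past the threshold without each replicate in turn, and with median centring it was at -0.62 from the median of all genes and no longer passed. Nyx, the gene of nyctalopin of the retina, had a mean of -0.20 ± 0.14 and did not pass (adjusted p = 0.0878). Its red signal was well above background on 1 of 3 arrays and its green signal on 3, so Nyx was tested through its control channel. Its ratios, under any setting, are therefore not exact. Nyx passed with a normexp offset of 0 (-0.61), with plain subtraction (-0.61), with Feature Extraction (-0.93) and without replicate 2 (adjusted p = 0.0496). Kera, Epyc and Chad were not well above background.

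The chains of these proteoglycans are built in steps, from a linkage region to alternating sugars that are then sulfated. Of 5 tested enzymes of the linkage region (median 0.03), 1 passed the threshold: Xylt2, which adds the first sugar, at -0.26 ± 0.11 (SD, n = 3; limma, adjusted p = 0.0374). This call was lost without any of the 3 replicates and with a normexp offset of 0, plain subtraction or Feature Extraction, and with median centring Xylt2 lay 0.10 above the median of all genes. Of 9 tested genes of chondroitin and dermatan sulfate chains (median 0.04), 2 were higher and 1 was lower. Among all genes 11.5% were higher and 25.9% lower. Csgalnact1 and Chsy1, which start and extend the chondroitin chain, had means of 0.32 ± 0.08 and 0.31 ± 0.15 (adjusted p = 0.0148 and 0.0262), each above 0 on all 3 arrays. Chst14, the sulfotransferase of dermatan sulfate, was lower on all 3 arrays, with a mean of -0.30 ± 0.07 (adjusted p = 0.0169). Without replicates 1, 2 and 3 in turn, 1, 3 and 0 of these 3 calls were left. With median centring Chst14 was at -0.27, which is -0.54 from the median of all genes, and did not pass. The list then had 4 calls higher and 0 lower.

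Keratan sulfate chains were covered by 2 tested genes, neither past the threshold (median -0.17 with loess and 0.40 with median centring). Chst1, a keratan sulfate sulfotransferase, had a mean of -0.09 ± 0.08, and B3gnt7, which extends the chain, had -0.24 ± 0.13 (limma, adjusted p = 0.316 and 0.0517). B3gnt7 was called lower with scale normalization between arrays and under the robust variance model, and both genes were called higher without normalization between the dyes.

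Fibrillar collagens and collagens on the fibril surface are the classical partners of decorin. Of 6 tested collagen genes (median -0.02), 5 did not pass the threshold, Col1a1, Col1a2 and Col3a1 among them. Their means were -0.13 ± 0.22, 0.11 ± 0.27 and 0.05 ± 0.32, with ratios on both sides of 0 among the arrays. Col14a1, a collagen of the fibril surface, was lower, with ratios of -0.23, -0.57 and -0.51 (limma, adjusted p = 0.0121, and 0.0961 without replicate 3). With median centring Col14a1 was at -0.25, which is -0.52 from the median of all genes, and did not pass. Under that setting 4 of the 6 collagen genes were called higher. The median of the 6 then lay 0.30 above that of all genes, against 0.03 with loess.

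Of 10 tested growth factor and complement partners (median 0.02), 1 was higher and 4 were lower, beside 11.5% and 25.9% of all genes. Ccn2, the connective tissue growth factor that decorin can bind, had ratios of 0.81, 0.76 and 0.23 and a mean of 0.60 ± 0.32 (SD, n = 3; limma, adjusted p = 0.0135). It did not pass without replicate 2 (adjusted p = 0.0633). Igf1, a hormone made largely by the liver, was lower on all 3 arrays, with -1.65, -2.44 and -2.39 and a mean of -2.16 ± 0.44 (adjusted p = 8.89e-04), and it was called lower with median centring too (-1.38). Vegfa had a mean of -0.81 ± 0.34, C1qb -0.43 ± 0.24 and Bmp2 -0.28 ± 0.04 (adjusted p = 0.00597, 0.0203 and 0.0202), each below 0 on all 3 arrays with loess. With the mean over its probes Vegfa was at -0.53 and was still called lower. With median centring C1qb was at 0.23, and neither it nor Vegfa and Bmp2 passed. Without replicates 1, 2 and 3 in turn, 4, 2 and 3 of the 5 calls were left. Tgfb1, Tgfb2 and Tgfb3, the growth factors best known to bind decorin, were not bright enough to be tested.

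Among 15 tested receptors (median -0.08), 2 were higher and 1 was lower, beside 11.5% and 25.9% of all genes. Bmpr1a, a BMP receptor, had a mean of 0.40 ± 0.14, and Dag1, the gene of dystroglycan, 0.26 ± 0.10 (limma, adjusted p = 0.011 and 0.0337). Egfr, a receptor that decorin can bind, was at -0.48 ± 0.15 (adjusted p = 0.00715). All 3 kept 1 side of 0 on every array with loess, 2, 2 and 0 of the calls were left without replicates 1, 2 and 3, and with median centring Egfr was not past the threshold (-0.08). Dag1 lost its call when any 1 replicate was left out, and with a normexp offset of 0, plain subtraction or Feature Extraction. With median centring the list had 4 calls higher and 0 lower among its 15 genes, beside 4990 higher and 1246 lower among 14183 genes. Tlr2 and Tlr4, receptors of biglycan, had means of -0.05 ± 0.15 and 0.03 ± 0.15. The green signal of Tlr4 was well above background on 1 array only and its red signal on 3. Tlr4 was thus tested through its G200 channel, and its ratios under any setting are not exact. With Feature Extraction Tlr4 was at 0.95 and was called higher. Where both colours had to be well above background, Tlr4 was not tested.

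Of 8 tested proteases that process or degrade these proteoglycans (median 0.02), 3 were higher and 3 were lower with loess. Among all genes 11.5% were higher and 25.9% lower. Mmp2, a gelatinase that cleaves decorin, had ratios of 0.74, 0.34 and 0.96 and a mean of 0.68 ± 0.31 (SD, n = 3; limma, adjusted p = 0.00849). Replicate 2 was the lowest for Mmp2 as for Dcn. Htra1 and Adamts5 had means of 0.27 ± 0.14 and 0.25 ± 0.04 (adjusted p = 0.0392 and 0.0291). Bmp1 and Tll1, which remove the propeptides of biglycan and of fibrillar collagens, were lower on all 3 arrays, at -0.81 ± 0.08 and -0.67 ± 0.06 (adjusted p = 0.00108 and 0.00148). Mmp14 was at -0.25 ± 0.13 (adjusted p = 0.0493) with loess and at 0.31 with median centring, and it was not called with any other background correction. Bmp1 and Tll1 stayed past the threshold without each replicate, and in all 3, 4 and 2 of the 6 calls were left without replicates 1, 2 and 3. Relative to the median of all genes under median centring, Bmp1 and Tll1 were at -0.48 and -0.54 and Mmp2 was at 1.01. Bmp1 and Tll1 did not pass with median centring (-0.21 and -0.27), where 2 proteases were called higher and 0 lower. Without normalization between the dyes 5 of the 8 were called higher and 0 lower, beside 8010 higher and 304 lower among 14183 genes.

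Of 14 other matrix and cell surface proteoglycans tested (median -0.01), 4 were higher and 4 were lower, beside 11.5% and 25.9% of all genes. The highest of those past the threshold were Esm1 (endocan) at 0.36 ± 0.13, the syndecan Sdc4 at 0.34 ± 0.18 and the glypican Gpc4 at 0.27 ± 0.07. Sdc4 had a second probe with a ratio of the other sign, and the mean over its probes was -0.09. The lowest were the syndecan Sdc1 at -0.52 ± 0.14, Col18a1, a basement membrane proteoglycan, at -0.36 ± 0.20 and the testican Spock2 at -0.33 ± 0.08. With median centring Sdc1, Col18a1 and Spock2 were at 0.08, 0.34 and 0.05 and none of them passed, and the list had 7 calls higher and 0 lower. Sdc4, Gpc4 and Col18a1 did not pass with a normexp offset of 0 or with plain subtraction, nor Col18a1 with Feature Extraction. Without replicates 1, 2 and 3, 2, 7 and 1 of the 8 calls were left.

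**Figure D5:**
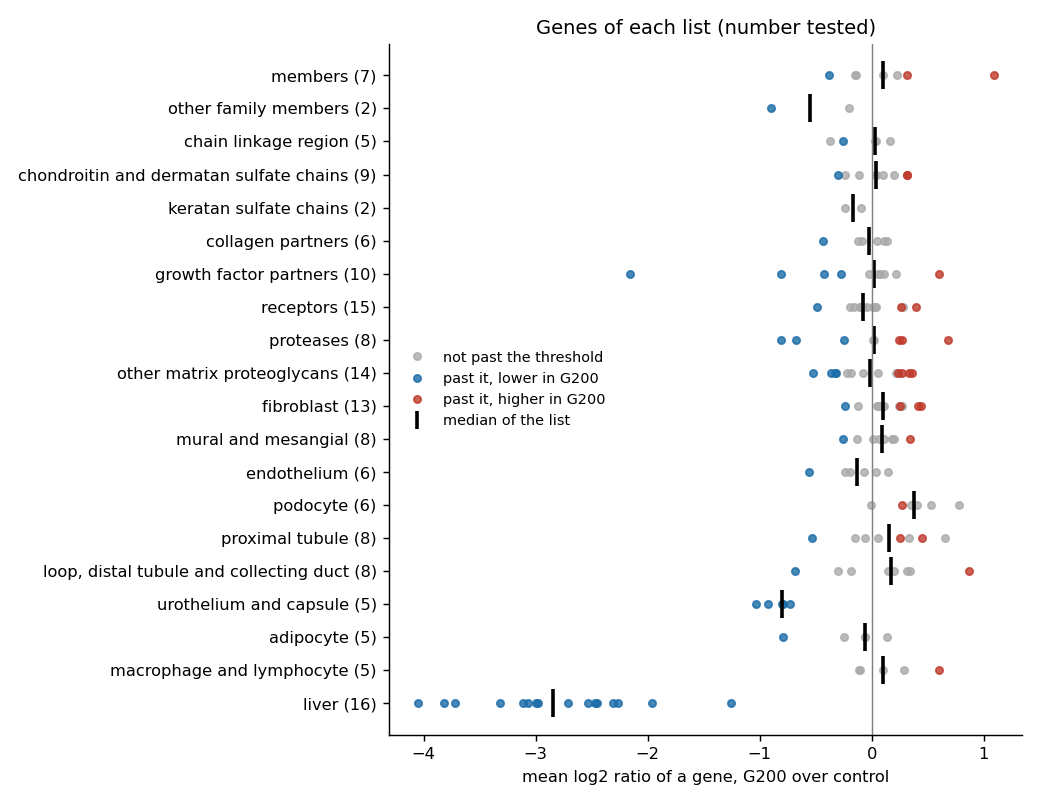
Mean log2 ratio of G200 over control (x axis) of every tested gene of each list, with the median of the list as a bar and colours for the side of the adjusted threshold. The members run from -0.38 to 1.09 around a median of 0.10, and all 16 liver genes lie at or below -1.26; with median centring some genes of negative ratio, Bgn among them, change side.

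Fibroblasts are the usual source of these proteoglycans. Of 13 tested fibroblast markers (median 0.10), 3 were higher and 1 was lower, beside 11.5% and 25.9% of all genes. The medians of these markers on replicates 1, 2 and 3 were 0.14, -0.02 and 0.27, beside 1.12, 0.70 and 1.44 for Dcn. In bulk RNA, fewer cells of a type and less RNA per cell cannot be told apart. The summed normalised intensity of the list was 8815, 8531 and 8639 in the control and 9420, 7991 and 10633 in G200. The G200 sum was above that of the control on replicates 1 and 3 and below it on replicate 2. Col3a1 was the most abundant gene of the list, Pdgfra the highest at 0.45 ± 0.15 (limma, adjusted p = 0.00862, and 0.0761 without replicate 3) and Pi16 the lowest at -0.24 ± 0.07. The other calls were Fbn1 at 0.42 ± 0.22 and Fbln5 at 0.26 ± 0.15. The green signal of Fbn1 was well above background on 2 of 3 arrays and its red signal on 3, so Fbn1 was tested through its G200 channel. Where both colours had to be well above background, Fbn1 was not tested and Fbln5 did not pass. With median centring Pi16 was at 0.0029 and did not pass, and 2, 3 and 0 of the 4 calls were left without replicates 1, 2 and 3. Pi16 lost its call when any 1 replicate was left out, and with the mean over its probes (-0.21). With median centring 9 of the 13 were called higher, and the list's median lay 0.30 above that of all genes, against 0.15 with loess. The part of fibroblast content in the ratio of Dcn was not tested.

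Mural and mesangial markers (8 tested, median 0.09) had 1 call on each side, Itga8 at 0.34 ± 0.20 and Notch3 at -0.26 ± 0.06, while their most abundant gene, Mylk, was at 0.07 ± 0.09. Neither call was left without replicate 1 or without replicate 3. Mylk had a second probe with a ratio of the other sign, and the mean over its probes was -0.06. Of 6 endothelial markers (median -0.13), only Pecam1 passed, at -0.56 ± 0.05 (limma, adjusted p = 0.00235) with loess and at 0.14 with median centring. Plvap, the most abundant, was at -0.20 ± 0.16 and Emcn, the highest, at 0.14 ± 0.10. With median centring Mylk and Emcn were called higher (0.70 and 0.55) and Notch3 was not called (-0.19). Of 5 macrophage and lymphocyte markers (median 0.10), Lyz2, the most abundant and the highest, passed at 0.60 ± 0.26 (adjusted p = 0.00874, and 0.0722 without replicate 3), and Csf1r was the lowest at -0.11 ± 0.07, and at -0.53 and called lower with Feature Extraction. Of 5 genes listed for adipocytes (median -0.06), Cfd passed at -0.79 ± 0.56 (limma, adjusted p = 0.024, and 0.132 without replicate 3). Pck1 was the most abundant of the list at -0.25 ± 0.49 and Fabp4 the highest at 0.14 ± 0.34. Which cells of the kidney gave these signals, that of Pck1 among them, was not tested. Without replicate 1 Pck1 was at -0.53 and was called lower, and without replicate 3 Fabp4 was at -0.046. Cfd did not pass with median centring (-0.57), without normalization between the dyes, with Feature Extraction (-1.69) or under the robust variance model.

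Epithelial lists of the nephron differed between arrays. The 6 podocyte markers had a median of 0.38, and medians of 0.83, 0.11 and 0.26 on replicates 1, 2 and 3. Among them was 1 call, on the higher side, which was lost when any 1 replicate was left out. Ptpro was the highest with 1.70, 0.33 and 0.33, Podxl the most abundant at 0.36 ± 0.34 and Synpo the lowest at 0.00 ± 0.05, with a red signal well above background on 1 array. Podxl was at 0.17 without replicate 1, and at 0.51 without replicate 2, where it passed (limma, adjusted p = 0.039). Ptpro passed without replicate 1 at 0.33 (adjusted p = 0.0325). With median centring Ptpro and Podxl were called higher (1.24 and 1.05). The 8 proximal tubule markers (median 0.16) had 2 calls higher, Cubn at 0.45 ± 0.33 and Lrp2 at 0.26 ± 0.10, and 1 lower, of which 2, 2 and 0 were left without replicates 1, 2 and 3. Lrp2 had a second probe with a ratio of the other sign, and the mean over its probes was 0.06 and did not pass. Slc7a13 was the most abundant at 0.33 ± 0.33, Slc5a2 the highest at 0.66 ± 0.81 and Slc27a2 the lowest at -0.54 ± 0.34 with loess and 0.27 with median centring. The ratios of Slc5a2 were 1.59, 0.16 and 0.22, and without replicate 1 its mean was 0.19, under those of Slc7a13 (0.48, adjusted p = 0.017) and Cubn (0.43). Of 8 markers of the loop, distal tubule and collecting duct (median 0.17, and 0.37, 0.10 and -0.14 on replicates 1, 2 and 3), Umod, the most abundant, was higher with 0.98, 0.81 and 0.82 (limma, adjusted p = 0.00101) and Slc4a1 was lower at -0.68 ± 0.19 (adjusted p = 0.00348), both also without each replicate. With median centring Slc4a1 was at -0.012 and did not pass. The proximal tubule list then had 5 calls higher and 0 lower and a median 0.57 above that of all genes, against 0.21 with loess. The list of the loop, distal tubule and collecting duct had 6 higher and 0 lower and a median 0.51 above it, against 0.22. With Feature Extraction no proximal tubule marker was called.

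The urothelium and capsule list and the liver list were lower in G200. All 5 tested genes of urothelium and capsule were lower (median -0.80), with Upk1a, the most abundant, at -1.03 ± 0.58, Msln at -0.73 ± 0.13 and Upk1b, Upk2 and Upk3a between them, and their median lay at -0.59 from that of all genes with median centring. With median centring 0 of the 5 were called, and 5, 3 and 4 of the 5 calls were left without replicates 1, 2 and 3. The medians of this list on replicates 1, 2 and 3 were -1.38, -0.60 and -0.55. Without replicate 1 Upk1b was at -0.50 and Upk2 at -0.52, and with the mean over its probes Upk1b was at -0.52. All 16 liver genes were lower, with a median of -2.85 and medians of -1.49, -3.01 and -4.09 on replicates 1, 2 and 3. The summed intensity of the liver list was 186943, 216011 and 225517 in the control and 55704, 22343 and 8823 in G200. The liver levels were higher in the control, counted as 1 sample, on which every ratio here rests. G200 held liver signal too, and its sums differed more between arrays than those of the control. What RNA the control and G200 samples held was not tested. Ttr was the most abundant at -3.72 ± 1.82, Apoc1 the lowest at -4.05 ± 1.67 and Cyp2e1 the highest at -1.26 ± 0.73. With median centring 13 of the 16 were called lower, and 16, 12 and 14 of the calls were left without replicates 1, 2 and 3. Under the robust variance model 0 of the 16 were called. Cyp2e1 did not pass with median centring, without normalization between the dyes, without replicate 2 or without replicate 3. The liver genes were lowest on replicate 3 and least low on replicate 1, whereas Dcn was highest on replicate 3 and lowest on replicate 2. The part of these markers in the ratios of Dcn and its relatives was not tested.

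Among 8911 other tested genes with a symbol, the 5 whose ratios came nearest to those of Dcn over the 3 arrays were Gde1, Fabp3, Tff3, Dhrs7l1 and RT1-Da. Their root mean square differences from Dcn ran from 0.231 to 0.300 log2 units. Gde1, a glycerophosphodiester phosphodiesterase, had ratios of 1.03, 0.57 and 1.08, and Tff3, a trefoil factor of mucosal epithelia, had 0.90, 0.52 and 1.10. Fabp3, a fatty acid binding protein of heart and muscle, had 1.24, 0.47 and 1.11. RT1-Da, a chain of the rat MHC class II molecule, had 0.80, 0.53 and 1.08, and Dhrs7l1, a dehydrogenase of the short-chain type, had 1.03, 0.35 and 1.09. No listed relative of Dcn was among them.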

How the data were processed

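The authors deposited 1 Agilent Feature Extraction table per array, with raw median intensities of spots and local background for red and green, and a log10 ratio of red over green that the authors' software made after background subtraction and dye normalization. The labels give Feature Extraction version 9.3.2.1 and the file headers 11.5.1.1.

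Background correction of the deposited intensities used normexp (offset 50) of limma 3.58.1, under R 4.3.3, and loess then normalised each array. Control spots had no weight in loess and spots with outlier marks were left out. Replicate spots gave 1 mean per probe. Of 30367 probes, 18355 (60.4%) were matched by accession to a symbol of the RefSeq table (GRCr8). Kept were the 15651 probes that 1 colour showed well above background on every array, and the brightest stood for its gene, which left 14183 genes, 8912 with a symbol. Mean log2 ratios were tested against 0 by lmFit and eBayes (two-sided), and p-values were adjusted over all genes by Benjamini and Hochberg's method. The number of arrays limits the precision.

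The members, gene lists and motifs were chosen with earlier results of these data known. The genes named are every member; of each pathway list those past the threshold, or the 3 highest and 3 lowest of them where there were over 6, or the extremes where none passed; of each cell type list the most abundant, highest and lowest; the 5 nearest to Dcn; and its neighbours. Col1a1, Col1a2, Tlr2, Tlr4, Tgfb1, Tgfb2, Tgfb3, Fbn1, Fbln5, Cubn, Lrp2, Upk1b, Upk2 and Upk3a were named after their values were seen, as were Nyx and the family members that were not tested. The result of 1 single gene is not reported here, and the counts include it. The alternatives were other background corrections, dye normalizations, probe filters, probe rules and tests, and leaving out each array.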

Additional observations from a re-analysis of the deposited data

How the results depend on the processing

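Signals near background limit the ratios of Aspn, Omd and Fmod, and no array had exchanged dyes, so that small ratios can change side with the normalization between the dyes. As reported, 5316 genes passed, 2 members were higher and 1 lower, and the members' median was 0.10. With median centring 2 members were higher and 0 lower, beside 4990 higher and 1246 lower among 14183 genes, and the median was 0.43. Where the dyes were not normalised, 8314 of 14183 genes passed, 8010 higher and 304 lower, and 5 members were higher and 0 lower. The members' median was then 0.78, beside 0.62 over all genes. With a normexp offset of 0 there was 1 member higher and 0 lower, beside 1522 higher and 3457 lower among 14183 genes. The members' median was 0.28 there, 0.26 with plain subtraction and 0.46 with the Feature Extraction log ratio. A t-test of the log ratios against 0, which is not the test with unequal variance of the methods, left 2 genes after Benjamini-Hochberg adjustment and 0 members higher and 0 lower (4475 genes and 3 members at an unadjusted p under 0.05, and 443 genes by the methods' criterion of p and a ratio of 2). The methods' t-test, run on the channels, left 353 genes, 0 members higher and 0 lower (4211 genes and 2 members unadjusted, 473 genes by that criterion). This test and the fit of separate channels take the control as 3 samples, where the report counts it as 1. Leaving out 1 array gave 1612 to 4972 genes, 183 to 1621 of them higher and 1429 to 3351 lower. Of the members 1 to 2 were then higher and 0 to 1 lower, with a median of 0.07 to 0.10. The fewest genes passed without replicate 3.

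Among the named genes outside the members, calls lost with the sign kept and calls gained were 19 and 9 with median centring, 5 and 15 without normalization, 8 and 1 with offset 0, 7 and 1 with plain subtraction, 10 and 4 with Feature Extraction, 4 and 1 with the robust variance model, 0 and 1 with scale normalization, and 12 and 0 with separate channels. They were 2 and 0 with the mean over probes, and 2 and 0 where both colours had to be well above background. The 2 t-tests lost 53 and 51 calls. Calls lost were 17, 12 and 34 without replicates 1, 2 and 3, and calls gained 3, 2 and 0. With offset 0 these genes kept their calls at over 1.5 times the ratio: Csgalnact1 (0.53), Chsy1 (0.68), Chst14 (-0.73), Col14a1 (-0.82), Bmp2 (-0.52), Htra1 (0.45), Adamts5 (0.69), Pi16 (-0.42), Itga8 (0.52), Notch3 (-0.58), Cfd (-1.48), Fbln5 (0.56) and Fbn1 (0.99). With Feature Extraction Adamts5 was at 0.94, Chst14 at -0.95, Chsy1 at 0.97, Col14a1 at -1.10 and Fbn1 at 1.46. Under that setting Egfr was at -0.78, Ccn2 at 0.93, Fbln5 at 0.83, Notch3 at -0.59 and Htra1 at 0.58. Csgalnact1 was at 0.63, Bmp2 at -0.55 and Itga8 at 0.65, and all of these kept their calls. Median centring moved other called genes by over 1.5 times too, among them Lyz2 (1.41), Pdgfra (1.07), Esm1 (0.94) and Umod (1.76).

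Signs turned in these genes, and beyond the shift of all genes by the normalization the cause was not tested. With median centring the log2 ratios were 0.43 for Bgn, 0.37 for Xylt2, 0.23 for C1qb, 0.31 for Mmp14, 0.077 for Sdc1, 0.34 for Col18a1, 0.047 for Spock2, 0.0029 for Pi16, 0.14 for Pecam1 and 0.27 for Slc27a2. Where the dyes were not normalised they were 0.78 for Bgn, 0.72 for Xylt2, 0.077 for Chst14, 0.098 for Col14a1, 0.24 for Bmp2, 0.28 for Vegfa, 0.58 for C1qb, 0.27 for Egfr, 0.14 for Bmp1, 0.084 for Tll1, 0.66 for Mmp14, 0.43 for Sdc1, 0.69 for Col18a1, 0.40 for Spock2, 0.35 for Pi16, 0.16 for Notch3, 0.49 for Pecam1, 0.62 for Slc27a2, 0.34 for Slc4a1, 0.065 for Upk1b, 0.030 for Upk2 and 0.077 for Msln. With the mean over probes Sdc4 was at -0.088. No other sign of a called gene named here turned under the alternatives run.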
